A study of Mus musculus with 2 samples.

Results

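Mir182, Mir183 and Mir96, which form the Mir183 cluster, and the single genes Mir375, Mir205 and Mir203 are microRNA (miRNA) genes known from sensory, neuroendocrine and stratified epithelia. They were found at low but countable levels in the newborn mouse heart. These 6 of 1973 genes with a row in the count tables were chosen by their names and with their sense counts in both hearts already known, so the difference between the hearts is given below as a description, with no test. The data are small RNA sequencing libraries from 2 single hearts of strain B6NCrl on postnatal day 0, with no treatment or genetic change in the labels and sex not collected. Pup 2 gave replicate 1 and pup 3 gave replicate 2, both from pregnant female 1, and the labels give both libraries 1 donor identifier. There was 1 group and 1 library per pup, so animal and library preparation cannot be told apart, and the spread between the pups covers 1 litter.

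A miRNA gene is transcribed as a hairpin, which is cut into a short mature miRNA from its 5′ arm (5p) or its 3′ arm (3p). Bases 2 to 8 of the mature miRNA, the seed, pair with messenger RNAs, which are then repressed. The miRNAs of the Mir183 cluster are known from hair cells of the inner ear, photoreceptors and olfactory neurons, and mutations in the seed of miR-96 cause hearing loss. MiR-375 is a miRNA of pancreatic islets and other endocrine cells, where it restrains insulin secretion. MiR-205 is a miRNA of the basal layer of stratified epithelia and represses Zeb1 and Zeb2, as the miR-200 family does. MiR-203 is a miRNA of skin, where it represses the stem cell factor p63 as keratinocytes differentiate.

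The 5p arms of the cluster are shown first because their near-identical starts make them read as a family. Capitals mark the seed, letters run 5′ to 3′, and sequences are those of RefSeq on GRCm38.p6.
mmu-miR-182-5p: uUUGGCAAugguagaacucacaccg
mmu-miR-96-5p: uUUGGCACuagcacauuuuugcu
mmu-miR-183-5p: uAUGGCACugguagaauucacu
mmu-miR-1271-5p: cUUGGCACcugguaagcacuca

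Counted from base 1 at the 5′ end, miR-182-5p and miR-96-5p differ within the first 8 bases by A8C. MiR-96-5p and miR-183-5p differ there by U2A, and miR-182-5p and miR-183-5p by both U2A and A8C. The seeds are thus 3 different words, UUGGCAA in miR-182-5p, UUGGCAC in miR-96-5p and AUGGCAC in miR-183-5p. From base 9 on, miR-182-5p and miR-183-5p were equal at 12 of 14 compared positions and share the run UGGUAGAA, while miR-182-5p and miR-96-5p were equal at 5 of 15. MiR-1271-5p, of the gene Gm24195 on chromosome 13, has the seed of miR-96-5p. Its row held 0 sense counts in both hearts, which allows up to 1.29 CPM, the sense count scaled to 1000000 sense counts on genes, in replicate 1 and 0.860 in replicate 2, taking a count of 0 as up to 3 counts. The seed of miR-96-3p, AAUCAUG, is shared with miR-3475-5p of Mir3475, whose row held 3 counts in replicate 1 and 4 in replicate 2. No other mature miRNA in the RefSeq table had the seed of a listed arm of the 6 genes.

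The arms of the single genes printed here have seeds that differ from those of the cluster, and an arm of Mir182 is added for its likeness to miR-203-5p. MiR-375-3p, the arm of Mir375 known from islets, was not compared here.
mmu-miR-375-5p: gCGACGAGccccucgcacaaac
mmu-miR-205-5p: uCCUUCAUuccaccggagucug
mmu-miR-203-3p: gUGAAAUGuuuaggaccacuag
mmu-miR-203-5p: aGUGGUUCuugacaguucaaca
mmu-miR-182-3p: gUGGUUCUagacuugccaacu

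Between arms of the cluster and those of the single genes, the longest shared run was GUGGUUCU, which starts at base 1 of miR-182-3p and at base 2 of miR-203-5p, so their seeds are offset by 1 base. Counts were deposited per hairpin, with reads of both arms together. The hairpins of the 2 genes that differed most between the hearts are shown with the arms listed in RefSeq in capitals.
Mir375: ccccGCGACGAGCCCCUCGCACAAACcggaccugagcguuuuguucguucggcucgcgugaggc
Mir205: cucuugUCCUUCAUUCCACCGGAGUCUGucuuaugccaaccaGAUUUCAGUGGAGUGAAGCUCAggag

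On GRCm38, the assembly called mm10, the cluster spans 3820 bases of the minus strand of chromosome 6. Mir183 (ENSMUSG00000065619.2, chr6:30169668-30169737) is followed after 116 bases by Mir96 (ENSMUSG00000065586.1, chr6:30169446-30169551), and after a further 3453 bases by Mir182 (ENSMUSG00000076361.1, chr6:30165918-30165992). No exon of another gene in GENCODE M21 overlaps these 3 hairpins, and in RefSeq all 3 lie within the long noncoding RNA gene Mirc35hg. Mir375 (ENSMUSG00000065616.2, chr1:74900658-74900721, minus strand) lies between genes, 1349 bases from Cfap65, a gene of cilia and flagella. Mir205 (ENSMUSG00000065533.1, chr1:193507463-193507530, minus strand) lies inside exon 2 of the long noncoding RNA gene 4631405K08Rik, called Mir205hg in RefSeq. Mir203 (ENSMUSG00000065574.1, chr12:112130880-112130955, plus strand) lies 3320 bases from Aspg, which encodes an asparaginase, and has the miRNA gene Gm51289, or Mir203b, on its opposite strand. The hairpin of Mir375 had a GC content of 67.2%, and the other 5 lay between 45.7% and 50.9%. The longest stretch that any of the 6 shared with another GENCODE miRNA precursor, on either strand, was 14 nt, so no member had a near-identical copy there to split its reads.

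Replicate 1 held 5052766 reads with 2323450 sense counts on miRNA genes, and replicate 2 held 7441784 reads with 3487183. Reads with several alignments are counted in a row of their own and belong to no gene; they made up 36.6% and 37.1% of reads. The heart label was checked against the muscle miRNAs Mir208a, Mir208b and Mir499, which together held 90110 CPM in replicate 1 and 88934 CPM in replicate 2. Other muscle miRNA genes were low, such as Mir1a-1 (17 and 19 counts) and Mir133a-1 (20 and 25). How many of their reads stand in the row of several alignments was not tested. Intervals below are exact 95% intervals, Clopper-Pearson for a level and conditional binomial for a fold. They cover the counting error of reads and nothing else. Without molecular identifiers 1 molecule can give many reads, so the intervals can be too narrow for molecules.

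Together the 6 genes took a very small share of the sense counts on miRNA genes, which leave out reads with several alignments. They held 515 sense counts in replicate 1, or 0.0222% (0.0203 to 0.0242), and 1300 in replicate 2, or 0.0373% (0.0353 to 0.0394). The mean was 0.0297% ± 0.0107 (SD, n = 2). Each of the 6 had a mean above 2 CPM, the level used as the minimum for a comparison between the hearts. In these bulk samples, fewer cells of a type and less RNA per cell cannot be told apart.

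Mir203 was the most abundant of the set in both hearts. It had 380 counts in replicate 1, or 163.5 CPM (147.5 to 180.8), and 660 counts in replicate 2, or 189.3 CPM (175.1 to 204.3). Its mean of 176.4 CPM ± 18.2 (SD, n = 2) ranked 135 among all 1973 genes, and it also ranked 137 and 135 within the single hearts. The replicate 2 level was 1.16-fold that of replicate 1 (1.02 to 1.32), so the counting interval lay just above 1 while the difference stayed under 1.5-fold.

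Mir182, the first of the cluster by level, had 82 counts in replicate 1, or 35.3 CPM (28.1 to 43.8), and 203 in replicate 2, or 58.2 CPM (50.5 to 66.8). Mir183, which lies at the 5′ end of the cluster, had 20 counts, or 8.61 CPM (5.26 to 13.3), and 73 counts, or 20.9 CPM (16.4 to 26.3). Mir96, the gene of the hearing-loss mutations, had 18 counts, or 7.75 CPM (4.59 to 12.2), and 63 counts, or 18.1 CPM (13.9 to 23.1). For each of these 3 genes the replicate 2 interval lay above that of replicate 1. Their means were 46.8 CPM ± 16.2, 14.8 CPM ± 8.72 and 12.9 CPM ± 7.30 (SD, n = 2), at ranks 195, 242 and 250.

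Mir375 and Mir205 were the lowest of the set in replicate 1 and stood above Mir183 and Mir96 in replicate 2. Mir375, the islet miRNA, had 9 counts in replicate 1, or 3.87 CPM (1.77 to 7.35), and 200 in replicate 2, or 57.4 CPM (49.7 to 65.9). Mir205, the basal epithelial miRNA, had 6 counts, or 2.58 CPM (0.948 to 5.62), and 101 counts, or 29.0 CPM (23.6 to 35.2). Their ranks among all genes went from 300 to 187 and from 323 to 219. The means of 30.6 CPM ± 37.8 and 15.8 CPM ± 18.7 (SD, n = 2) each had an SD larger than the mean, so for these 2 genes the mean describes neither heart.

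**Figure D1:**
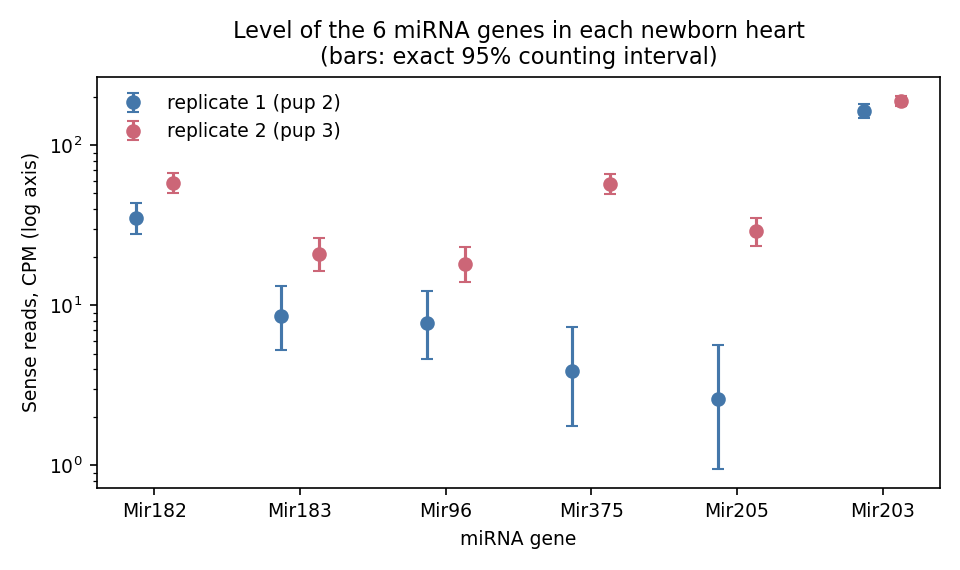
Sense reads of each of the 6 genes in CPM on a log axis, with 1 point per heart and bars for the exact 95% counting interval. The points of the 2 hearts lie close for Mir203 (163.5 and 189.3 CPM) and far apart for Mir375 (3.87 and 57.4 CPM) and Mir205 (2.58 and 29.0 CPM).

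The order of levels within the set therefore differed between the hearts. In replicate 1 it ran Mir203, Mir182, Mir183, Mir96, Mir375 and Mir205, and in replicate 2 Mir203, Mir182, Mir375, Mir205, Mir183 and Mir96. Mature miRNAs are of about the same length, so CPM was compared between genes without a length correction, although the yield of reads per molecule can differ from miRNA to miRNA and was not measured. Mir203 exceeded Mir182, its neighbour in the order of means, 4.63-fold in replicate 1 and 3.25-fold in replicate 2. Below it, the means of neighbouring genes (Mir182 and Mir375, Mir375 and Mir205, Mir205 and Mir183, Mir183 and Mir96) lay closer together than the SD of at least 1 gene of each pair. Mir182 and Mir375 show this most plainly: Mir182 had 9.11-fold the counts of Mir375 in replicate 1 and 1.01-fold in replicate 2.

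The make-up of the 6-gene total shows where that total differed. Mir203 made up 73.8% of it in replicate 1 (69.8 to 77.5) and 50.8% in replicate 2 (48.0 to 53.5). The cluster kept a like share, at 23.3% (19.7 to 27.2) and 26.1% (23.7 to 28.6). Mir375 and Mir205 together made up 2.91% (1.64 to 4.76) and 23.2% (20.9 to 25.5).

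**Figure D2:**
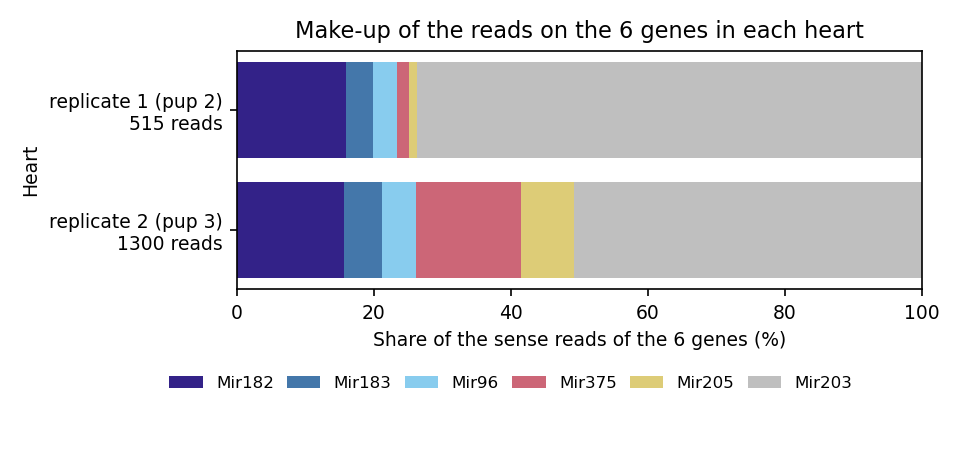
Share of each of the 6 genes in their summed sense reads, in percent, with 1 bar per heart (515 reads in replicate 1 and 1300 in replicate 2). The blocks of Mir375 and Mir205 make up 2.91% of the first bar and 23.2% of the second.

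Within the Mir183 cluster, whose 3 hairpins lie on 1 strand, Mir182 held most of the reads in both hearts. It made up 68.3% of the cluster's 120 counts in replicate 1 (59.2 to 76.5) and 59.9% of the 339 in replicate 2 (54.4 to 65.1). Mir182 exceeded Mir183 4.10-fold and 2.78-fold, a log2 ratio of 1.76 ± 0.396 (SD, n = 2). It exceeded Mir96 4.56-fold and 3.22-fold, a log2 ratio of 1.94 ± 0.353. Mir183 and Mir96, which are 116 bases apart, had nearly equal counts, with a log2 ratio of 0.18 ± 0.0428. With 2 pups in 1 group, these ratios were not tested. The summed cluster was at 51.6 CPM (42.8 to 61.8) and 97.2 CPM (87.1 to 108.1), 1.88-fold higher in replicate 2 (1.52 to 2.34).

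Between the hearts, the counting intervals of the folds set only Mir375 and Mir205 apart from the other 4 genes. Mir375 was 14.8-fold higher in replicate 2 (7.64 to 32.9) and Mir205 11.2-fold (4.98 to 31.3), and these intervals overlap. In the cluster, Mir183 was 2.43-fold higher (1.47 to 4.21), Mir96 2.33-fold (1.36 to 4.18) and Mir182 1.65-fold (1.27 to 2.16), again with overlapping intervals. The intervals of Mir375 and Mir205 did not overlap those of the other 4 genes, and Mir203, at 1.16-fold, overlapped with Mir182 but not with Mir183 or Mir96. These are intervals of 1 library against another at counting error, not of a condition.

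With 1 CPM added before the ratio, which holds down ratios of low counts, the log2 ratios of replicate 2 over replicate 1 were 3.58 for Mir375, 3.06 for Mir205, 1.19 for Mir183, 1.12 for Mir96, 0.71 for Mir182 and 0.21 for Mir203. All 6 were above 0 and 5 were past 1.5-fold. Among the 338 genes that averaged at least 2 CPM, the 6 included, 26 were past 1.5-fold in that direction, a background of 7.69%, and 9 in the other, 2.66%. With all reads of the tables as the library size, which lowers every CPM, 300 genes reached 2 CPM, and 20 of them were higher and 3 lower. The median log2 ratio was 1.16 over the 6 genes and 0.05 over the 338. Since the members' difference was known when they were chosen, nothing is read from these shares. The background also depends on the level: Mir203 aside, the members had means of 12.9 to 46.8 CPM, and among the 65 genes between 10 and 50 CPM, 15 or 23.1% were past 1.5-fold and higher in replicate 2. These 15 hold the same 5 members, and of the other 60 genes 10 were past it.

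**Figure D3:**
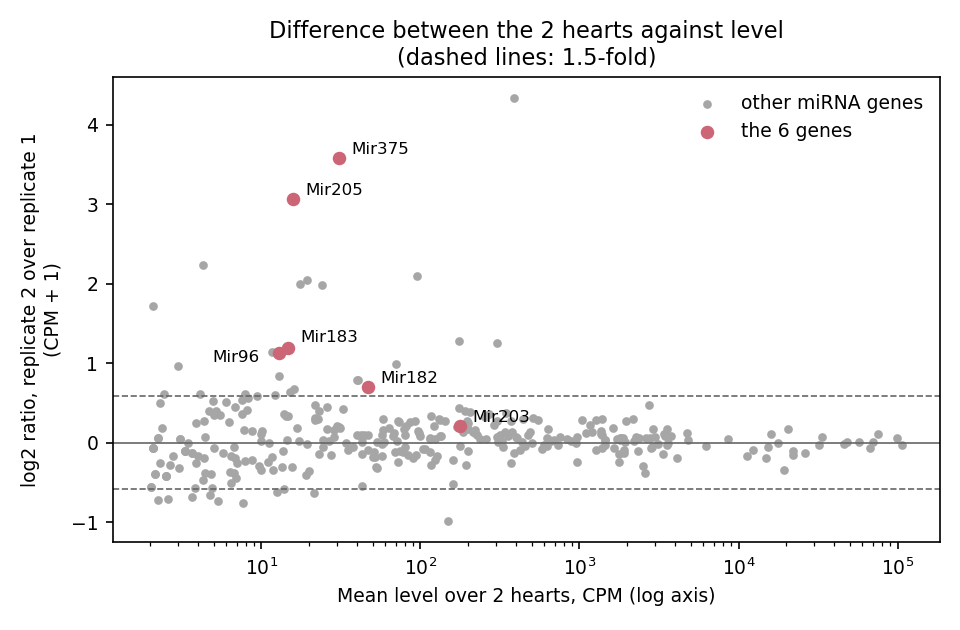
Each point is 1 of 338 miRNA genes, with its mean level in CPM on a log axis against its log2 ratio of replicate 2 over replicate 1 on the log2(CPM + 1) scale; dashed lines mark 1.5-fold. Mir375 (3.58) and Mir205 (3.06) lie below 1 other gene, Mir449a, at the top, and Mir203 (0.21) lies among the other genes.

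By size of the log2 ratio, Mir375 stood at place 2 and Mir205 at place 3 of the 338 genes, behind Mir449a of multiciliated cells (83 and 2589 counts). Mir183 was at place 12, Mir96 at 14, Mir182 at 20 and Mir203 at 86. Among the members, the ratios of Mir183 and Mir96 lay 0.07 apart and those of Mir375 and Mir205 0.52 apart. Outside the set, the genes most like each member were taken as the 3 with the closest log2 ratio over the 2 libraries. For Mir183 these were Mir34b, Mir34c and Mir429, within 0.09 of its ratio, and for Mir96 Mir34b, Mir34c and Mir200b, within 0.13. Mir182 was closest to Mir452 (28 and 69 counts), Mir200a (27 and 65) and Mir193b (68 and 179). Mir203 was closest to Mir221, Mir494 and Mir33, all within 0.005, in a range of ratios that many genes share. Mir375 and Mir205 were farther from any gene outside the set. The nearest to Mir375 were Mir449a, 0.76 away, Mir7b, 1.35 away, and Mir200c, 1.49 away. For Mir205 they were Mir7b, 0.83 away, Mir200c, 0.97 away, and Mir92b, 1.02 away. Mir7b went from 2 to 27 counts (8.99-fold, 2.26 to 78.1) and Mir92b from 16 to 110. Likeness over 2 libraries is a description and carries no p-value.

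Other miRNA genes that mark epithelia, and those of the heart's own tissues, were set beside the 6 as lists. All lists were chosen with earlier results of these data known, so their counts are a description and support nothing about the 6. The share of all 338 genes past 1.5-fold was 7.69% higher in replicate 2 and 2.66% lower. Between 10 and 50 CPM, 23.1% were past it and higher. In the miR-200 family, which keeps epithelial cells epithelial, 5 of 5 were past 1.5-fold and higher in replicate 2, with a median log2 ratio of 1.28, and the family's summed level was 201.9 CPM in replicate 1 and 544.6 CPM in replicate 2. Of 5 genes of multiciliated cells, 3 passed the level filter and all 3 were past 1.5-fold. The 5 genes together stood at 220.8 and 1186 CPM in the respective hearts, of which Mir449a held 35.7 and 742.4 CPM. The other miRNAs of skin and stratified epithelium, set beside Mir205 and Mir203, had 1 of 4 past 1.5-fold (Mir452, log2 ratio 0.67). Mir31, Mir184 and Mir224 had log2 ratios of 0.05, -0.01 and 0.16, beside 0.21 for Mir203. Of the gut and liver miRNAs, which include Mir215 and Mir192, 0 of 5 were past 1.5-fold in either direction, with a median of -0.11. In all these lists 0 genes were past 1.5-fold and lower.

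Among neuroendocrine and neuronal miRNAs, set beside Mir375, 10 of 11 had a row and 4 passed the level filter, with a median log2 ratio of 1.28. Of these 4, 2 genes, Mir7b and Mir137, were past 1.5-fold and higher (Mir137 21 and 135 counts, log2 ratio 1.98). Mir7b, at 0.861 CPM in replicate 1 and 7.74 CPM in replicate 2, passed the filter through replicate 2 alone. Mir7-1, which like Mir375 is abundant in endocrine cells, had 58 and 84 counts and a log2 ratio of -0.05; Mir7-1, Mir7-2 and Mir7b are copies of 1 family, so how their reads were split is uncertain. Mir153 lay just under the threshold at 0.58 with 1 CPM added, and just over it without, at 1.57-fold (0.869 to 2.95). The genes Mir124a-1, Mir124a-2 and Mir124a-3 as well as Mir9-2 and Mir9-3, the defining neuronal miRNAs, were at 0 in both hearts; they have copies elsewhere in the genome, so their reads may stand in the row of several alignments.

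Heart muscle miRNAs had a median log2 ratio of 0.01 over 3 genes, the endothelial Mir126a -0.03 and the smooth muscle pair Mir143 and Mir145a 0.05. Those of red cells had a median of -0.31 over 2 genes and those of white cells -0.15 over 3, with summed levels of 627.1 and 542.0 CPM and of 536.3 and 497.5 CPM. Mir144, a red cell miRNA, stood lowest of these at a log2 ratio of -0.51 (438 and 459 counts), a larger difference than that of Mir203. No gene with a row in these 5 lists was past 1.5-fold. Of the 4 white cell genes listed, 3 had a row and Mir142 had none. The row of Mir142b held 1580 opposite strand reads in replicate 1 and 1835 in replicate 2, which the white cell sums leave out. The part of other cell types in the difference of the 6 genes was not tested.

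**Figure D4:**
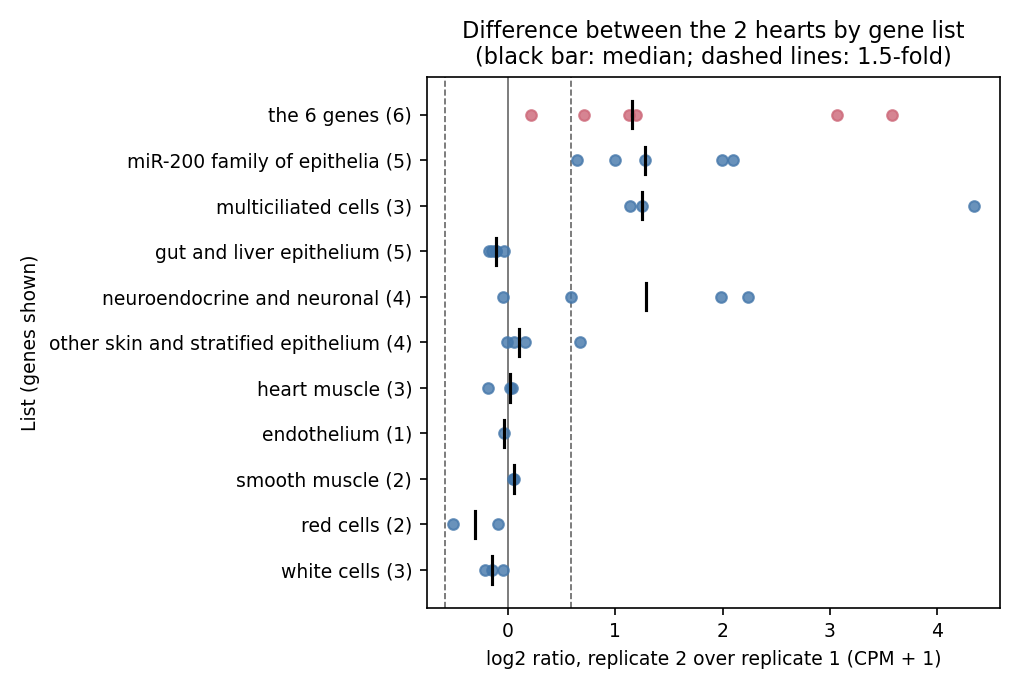
Log2 ratio of replicate 2 over replicate 1 on the log2(CPM + 1) scale for the 6 genes and for each list, with 1 point per gene that averaged at least 2 CPM, a black bar at the median and dashed lines at 1.5-fold. Medians of the 6 genes (1.16), the miR-200 family (1.28), multiciliated cells (1.25) and neuroendocrine and neuronal miRNAs (1.28) lie past the dashed line. Those of heart muscle (0.01), endothelium (-0.03) and smooth muscle (0.05) lie near 0.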

How the data were processed

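Small RNA libraries of 2 hearts were analysed. The authors deposited raw read counts for each miRNA gene, in columns for the strands together, the sense strand alone and the antisense strand alone; per the deposited file descriptions they used assembly mm10 and annotation M4. The aligner, counter, trimming and mismatch settings are not given in the sources used here. The 4 summary rows that name no gene stayed out of library sizes. Of the reads, 5.93% and 5.62% were outside the sense strand of any feature, and 11.5% and 10.5% were unmapped. Of 1973 identifiers 1894 matched GENCODE M21, and the other 79 had 0 counts.

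CPM used sense totals. Log2 ratios used a pseudocount of 1 CPM and a mean of at least 2 CPM, with 1.5-fold as the size of difference. No differential test was run, since the design has 1 group. Members and the 10 lists (42 symbols) were chosen with earlier results of these data known. Named genes were the 6 members, the 3 closest to each by log2 ratio, the 10 and 5 other genes with the largest ratios in each direction (of which the text names those that bear on the members), list members, neighbours within 10000 bases and genes sharing a seed. Alternatives were pseudocounts, filters, strands, a fold of 2, edgeR 4.0.16 TMM and DESeq2 1.42.0 size factors, and all reads as library size. Ratio and interval code (Python 3.11.15, scipy 1.17.1) was tested on simulated counts.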

Additional observations from a re-analysis of the deposited data

Results flagged for a closer look

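The opposite strand column, which the comparisons do not use, held more than the 3 counts allowed for a count of 0 at Mir203. There were 6 such reads in replicate 1, or 1.55% of the reads on the row (0.573 to 3.35, exact Clopper-Pearson 95% interval), and 15 in replicate 2, or 2.22% (1.25 to 3.64). Over all genes the opposite strand held 6.62% and 6.67% of gene counts. Most of these lay on 1 gene, Gm25301, with 142295 of 164593 opposite strand counts in replicate 1 and 214103 of 249084 in replicate 2. The pooled share is therefore not that of a typical gene. In RefSeq this strand carries Gm51289 (Mir203b), at chr12:112130887-112130946, whose symbol matched no row of the tables. Its 2 mature miRNAs are printed to show that they are not those of Mir203, with the seed in capitals; which of them the reads hold is not given by counts per gene.
mmu-miR-203b-5p: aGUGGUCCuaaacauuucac
mmu-miR-203b-3p: uUGAACUGucaagaaccacugg

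In replicate 2 the opposite strand reads were 1.67-fold those of replicate 1 per sense total (0.611 to 5.24), a difference not detectable at this depth. The other 5 genes had between 0 and 3 opposite strand reads.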

How the results depend on the processing

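All 6 members stayed higher in replicate 2 under the 6 alternatives of pseudocount, scaling and strand. The log2 ratio ranged from 2.81 to 3.73 for Mir375, 2.16 to 3.26 for Mir205, 0.93 to 1.23 for Mir183, 0.86 to 1.17 for Mir96, 0.65 to 0.71 for Mir182 and 0.19 to 0.24 for Mir203; the lowest values of the first 5 came with a pseudocount of 5 CPM, which holds low counts down more. The number of members past 1.5-fold and higher stayed at 5 under these. It was 4 at a fold of 2, without Mir182, and 0 with a minimum mean of 50 CPM, which leaves only Mir203 to be counted. Over all genes, 78 were higher and 36 lower with no filter, 5 and 1 with a mean of 50 CPM, 14 and 0 at a fold of 2, and 15 and 2 between 10 and 50 CPM, a range added after the data were seen. The number lower was 14 with a pseudocount of 0.5 CPM, 1 with 5 CPM and 3 with all reads as library size. Of the lists, with a pseudocount of 5 CPM the miR-200 family went from 5 to 4 genes past 1.5-fold and the skin and stratified epithelium miRNAs from 1 to 0. With 1 replicate left out, the share of the 6 genes ran from 0.0222% to 0.0373%, the log2 ratio of Mir182 over Mir183 from 1.48 to 2.04 and over Mir96 from 1.69 to 2.19. No paired analysis was possible because the series has 1 group. Depth limits Mir205 and Mir375 most: their 6 and 9 counts in replicate 1 set the width of their fold intervals.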
